A study of Mus musculus with 12 samples.

Results

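MHC class I molecules display short peptides from inside a cell at its surface, where CD8 T cells and natural killer cells read them. A class I molecule is a heavy chain paired with the light chain *B2m*, and its peptides are cut by the proteasome, carried into the endoplasmic reticulum by the *Tap1* and *Tap2* transporter, and loaded with the help of *Tapbp* (tapasin). Most of these genes respond to interferons and to the transactivator *Nlrc5*, and in the brain class I molecules are made by microglia, by vessel cells and at lower levels by neurons, in which they have been linked to the pruning and plasticity of synapses. The genes described here are the heavy chains *H2-K1*, *H2-D1* and *H2-T23*, the light chain *B2m*, the loading genes *Tap1*, *Tap2* and *Tapbp*, the immunoproteasome subunits *Psmb8* and *Psmb9*, and *Nlrc5*. They were found by matching the Ensembl identifiers of the table to these 10 symbols in GENCODE M21, and 9 of the 10 were among its 26409 genes. All 9 passed the filter on low values (0.1 TPM or more as the mean of 12 libraries, met by 18197 genes), and *Psmb9* is not analysed here.

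The study asked what the loss of *Dek*, a chromatin-binding protein, does to behaviour and to gene expression in the hippocampus of male and female mice. Hippocampi were dissected from adult mice that had gone through behaviour tests, and poly-A selected RNA was sequenced from 12 libraries, 3 in each of 4 groups. The WT groups, female and male, were labelled DEK WT. The cKO groups, female and male, were labelled DEK KO and came from a line in which a floxed *Dek* allele had been deleted in the germline by CMV-Cre on a C57Bl/6 background, with Cre then bred out, so the deletion is constitutive and present in every cell type. Values are TPM, a unit corrected for the length of transcripts and for the total of the library, from which the reads behind a gene's value cannot be recovered. The labels number the libraries of a group without saying that each is a separate mouse, and p-values measure the spread between these libraries.

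The genotype labels were borne out by *Dek* itself, which had 48.3 ± 2.58 TPM in WT and 7.23 ± 1.32 TPM in cKO libraries (SD, n = 6 each) with no overlap. The sex labels were not borne out in 2 libraries. *Eif2s3y*, a Y-linked gene, was listed at 72.7 TPM in the library labelled female cKO 3 and at 0.111 TPM in the library labelled male cKO 1, against 0.159 to 0.993 TPM in the other female libraries and 69.0 to 92.0 TPM in the other male libraries. The quality summary of the study colours these libraries by the opposite sex as well. Comparisons within a sex therefore rest on doubtful labels and were repeated without both libraries and with the sexes of that summary. The female WT libraries carry names that start with C57 and the other 9 libraries names that start with CMV, so among WT mice the prefix and sex cannot be told apart. In females the prefix and genotype cannot be told apart either, since all female cKO libraries carry the CMV prefix. The comparison of both sexes holds both prefixes on the WT side and only CMV on the cKO side.

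In the hippocampus of cKO mice the heavy chains *H2-K1*, *H2-D1* and *H2-T23* and their light chain *B2m* had fold changes of 1.14 to 1.29 against WT mice, while those of the transporter subunit *Tap2* and of tapasin were 0.908 and 0.99. The largest fold changes, with the widest intervals among the genes above 1, were those of *Psmb8* (1.38) and the other transporter subunit, *Tap1* (1.34). None of the 9 genes passed the test (limma, Benjamini-Hochberg adjusted p under 0.05 over 18197 genes and a fold change over 1.2), which 27 genes (0.148%) passed in this comparison. At an unadjusted p under 0.05, 4 of the 9 were higher in cKO and 0 were lower, against 4.84% and 1.8% of all genes tested. The log2 fold change was above 0 for 6 of the 9 genes, as for 55.8% of all genes, and its median was 0.30 over the 9 genes and 0.02 over all genes. The tissue is a mixture of cell types, and more cells of a type and more RNA per cell cannot be told apart in these values.

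**Figure D1:**
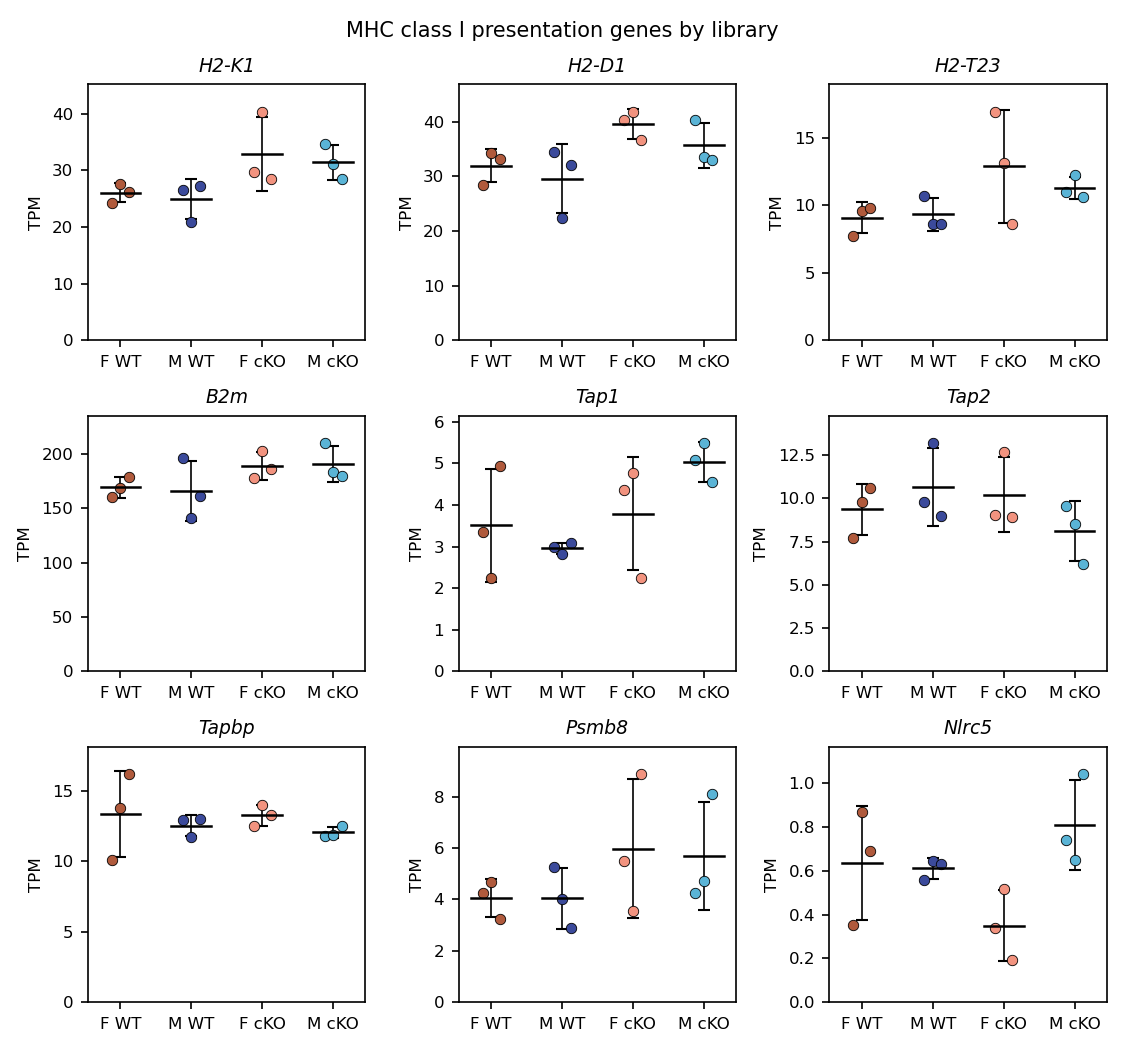
Level of each gene in TPM (vertical axes, linear and starting at 0) in the 4 groups (F, female; M, male; 3 libraries each); points are libraries, horizontal bars means and vertical bars SD. The 6 cKO values of *H2-K1*, from 28.4 to 40.3 TPM, all lie above the 6 WT values, from 20.8 to 27.6 TPM, while the groups overlap for the other 8 genes.

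In WT mice *B2m* stood at the top of the 9 genes, with a median of 165 TPM over 6 libraries, and *Nlrc5* at the bottom, with 0.637 TPM. The medians of the others were 32.6 TPM for *H2-D1*, 26.4 TPM for *H2-K1*, 12.9 TPM for *Tapbp*, 9.78 TPM for *Tap2*, 9.11 TPM for *H2-T23*, 4.14 TPM for *Psmb8* and 3.03 TPM for *Tap1*. Between neighbours in this order the ranges of the 6 libraries were apart below *B2m*, below *H2-K1*, below *H2-T23* and below *Tap1*. *H2-D1* and *H2-K1* overlapped in range, yet *H2-D1* was above *H2-K1* within each of 6 WT libraries. *Tapbp*, *Tap2* and *H2-T23* overlapped in range, as did *Psmb8* and *Tap1*.

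*H2-K1* and *H2-D1* encode the classical heavy chains that present peptides to CD8 T cells. *H2-K1* lies on mouse chromosome 17 at chr17:33996017-34000347 (GRCm38, minus strand) and *H2-D1* at chr17:35262730-35267499 (plus strand). Their upstream sequences are shown because both hold the same pair of elements, a κB-like site, the kind bound by NF-κB (GGG and TTCCC with any 2 bases between them), and an interferon-response element (TTTCACTTC), placed close together. The 250 bases before the RefSeq start of *H2-K1* (GRCm38.p6, chr17:34000348-34000597, minus strand, 5′ to 3′) are printed with these 2 motifs, a CRE half-site (TGACG) and a CCAAT box in capitals, the last on the opposite strand and so read as ATTGG.
H2-K1: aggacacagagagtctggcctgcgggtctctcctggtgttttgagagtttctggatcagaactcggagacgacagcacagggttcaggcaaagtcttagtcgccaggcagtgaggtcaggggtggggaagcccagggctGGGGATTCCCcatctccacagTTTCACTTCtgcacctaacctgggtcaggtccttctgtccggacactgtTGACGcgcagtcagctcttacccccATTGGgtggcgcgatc

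Searched on both strands in the 250 bases before each of 32851 RefSeq starts, the κB-like site was found in 1.53% of windows, TTTCACTTC in 0.402%, TGACG in 17.8% and CCAAT in 33.8%. In *H2-K1* the κB-like site began at -111 and the interferon-response element at -90 from the start, and in *H2-D1* at -171 and -150. Among the 16 other class I-like heavy chain genes examined, 12 had a window, and *H2-Q4*, *H2-Q6* and *H2-Q7*, the non-classical heavy chains next to *H2-D1*, held both elements in it. The 30-base stretches from the κB-like site onward, with both elements in capitals, come from chr17:34000429-34000458 (minus strand) for *H2-K1* and, on the plus strand, from chr17:35262923-35262952, chr17:35379444-35379473, chr17:35424677-35424706 and chr17:35439022-35439051 for the other 4 genes (GRCm38.p6).
H2-K1: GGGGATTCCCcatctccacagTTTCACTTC
H2-D1: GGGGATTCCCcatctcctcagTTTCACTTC
H2-Q4: GGGATTTCCCatctccccagTTTCACTTCt
H2-Q6: GGGGATTCCCcatctccccagTTTCACTTC
H2-Q7: GGGGATTCCCatctccccagTTTCACTTCt
A match of letters is a description of the sequence and no measure of binding in these mice.

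*H2-K1* had 24.3, 27.6 and 26.2 TPM in the female WT, 26.6, 20.8 and 27.2 TPM in the male WT, 29.7, 40.3 and 28.4 TPM in the female cKO and 34.6, 31.2 and 28.5 TPM in the male cKO libraries. All 6 cKO values stood above all 6 WT values, an order found for 0.572% of the genes tested, and female cKO 2 was the highest. The fold change was 1.26 (95% interval 1.09 to 1.44), a log2 difference of 0.33 ± 0.09 (SE), and the adjusted p was 0.381 (limma, unadjusted 0.0039). The difference was nearly the same in females (log2 0.31 ± 0.14) and in males (0.34 ± 0.14), although the female value was 0.16 without female cKO 2. With the sexes of the quality summary these values were 0.41 in females and 0.25 in males, and without both conflicting libraries 0.41 and 0.27. Against the 3 male WT libraries alone, which share the CMV prefix with all cKO libraries, the difference was 0.37 ± 0.13 with an adjusted p of 0.836.

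*H2-D1* had 28.5, 34.3 and 33.1 TPM in the female WT, 34.4, 22.4 and 32.0 TPM in the male WT, 40.3, 41.8 and 36.6 TPM in the female cKO and 40.4, 33.6 and 33.0 TPM in the male cKO libraries. The 3 female cKO libraries and male cKO 1 were above the highest WT library, while male cKO 2 and 3 were within the WT range. The lowest value of both *H2-K1* and *H2-D1* was in male WT 2. The fold change of *H2-D1* was 1.23 (95% interval 1.05 to 1.43) with an adjusted p of 0.586 (limma), and without male WT 2 the log2 difference in males went from 0.29 to 0.10. With the sexes of the quality summary it was 0.24, and without both conflicting libraries 0.19. The ratio of *H2-D1* to *H2-K1* stayed between 1.08 and 1.29 in WT and between 1.04 and 1.36 in cKO libraries. The transcripts of *H2-K1* share 14.3% of their 31-base words with *H2-D1*, and reads from the shared stretches could be assigned to either gene.

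*H2-T23* encodes Qa-1, a non-classical heavy chain read by NKG2 receptors of natural killer cells, and lies at chr17:36029773-36032855 (minus strand). Its values were 7.74, 9.60 and 9.83 TPM in female WT, 10.7, 8.63 and 8.63 TPM in male WT, 16.9, 13.1 and 8.61 TPM in female cKO and 11, 12.2 and 10.6 TPM in male cKO libraries. Female cKO 1 and 2 were the highest of the 12, and the library labelled female cKO 3 stood below the WT mean. The fold change was 1.29 (95% interval 1.05 to 1.58) with an adjusted p of 0.628 (limma). Without both libraries of conflicting sex the log2 difference was 0.51 ± 0.13 over both sexes (adjusted p = 0.34, limma) and 0.72 ± 0.16 in females (adjusted p = 0.204, limma), against 0.37 ± 0.14 and 0.46 ± 0.21 with all libraries. Of the 31-base words of *H2-T23*, 49.0% occur in another gene, most often in the pseudogene *H2-T-ps*, so its level is less certain than those of *H2-K1* and *H2-D1*.

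**Figure D2:**
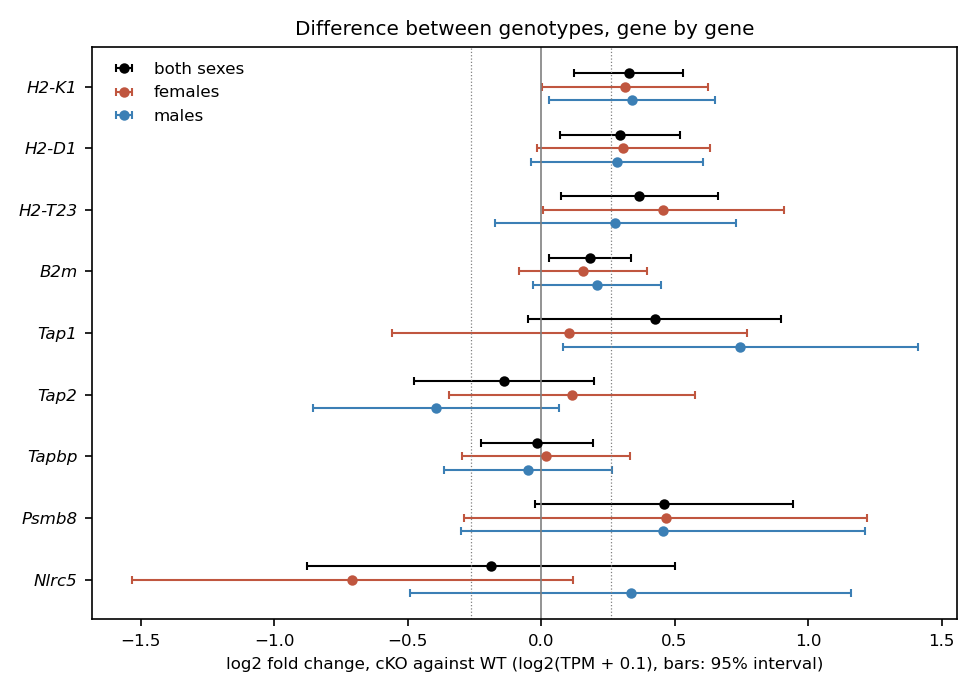
Difference between cKO and WT for each gene as a log2 fold change on the log2(TPM + 0.1) scale (horizontal axis), for both sexes (6 against 6 libraries), females and males (3 against 3 each); bars are 95% intervals from limma and dotted lines mark a fold of 1.2 either way. For both sexes the intervals of *H2-K1*, *H2-D1*, *H2-T23* and *B2m* lie above 0 before adjustment, and those of *Tap1*, *Tap2*, *Tapbp*, *Psmb8* and *Nlrc5* include 0.

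*B2m*, the light chain shared by the classical and nearly all non-classical heavy chains, is encoded apart from the MHC, at chr2:122147686-122153083 (plus strand). Its upstream sequence is shown for comparison with that of *H2-K1*. The 250 bases up to its RefSeq start (GRCm38.p6, chr2:122147437-122147686, plus strand) hold no κB-like site and no TTTCACTTC, but an ISRE-like site of the kind bound by interferon-regulated factors (GAAA and GAAA with any 2 bases between them, in 2.98% of windows), a TGACG and a CCAAT box, all in capitals.
B2m: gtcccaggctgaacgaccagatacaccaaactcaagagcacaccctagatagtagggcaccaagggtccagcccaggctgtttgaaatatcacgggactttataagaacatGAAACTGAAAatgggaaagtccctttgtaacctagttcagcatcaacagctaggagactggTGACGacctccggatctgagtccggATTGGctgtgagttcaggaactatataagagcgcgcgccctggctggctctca
Of the 8 genes of the 10 with a RefSeq window, TGACG was in 5 and CCAAT in 7, the ISRE-like site in *B2m* and *H2-T23*, and TTCNNNGAA, the letters of a STAT-type site found in 7.02% of windows, in *Psmb8*.

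*B2m* had 160, 169 and 179 TPM in female WT, 196, 141 and 161 TPM in male WT, 178, 203 and 186 TPM in female cKO and 210, 183 and 180 TPM in male cKO libraries. All 6 cKO values were above the WT mean but only female cKO 2 and male cKO 1 were above the highest WT library. The fold change was 1.14 (95% interval 1.02 to 1.26), a log2 difference of 0.18 ± 0.07, with an adjusted p of 0.664 (limma). The level of *B2m* over the sum of *H2-K1* and *H2-D1* was 2.73 to 3.26 in WT libraries (median 3.02) and 2.48 to 2.92 in cKO libraries (median 2.81). Female cKO 1 and 2, at 2.54 and 2.48, were below all WT libraries, and the other cKO libraries were within the WT range. No 31-base word of *B2m* occurs in another gene, which makes it the member least exposed to reads of relatives.

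*Tap1* and *Tap2* form the transporter that carries peptides into the endoplasmic reticulum, and their genes lie close together at chr17:34187553-34197225 and chr17:34203527-34216321. *Tap1* had 3.36, 2.24 and 4.94 TPM in female WT, 2.98, 2.81 and 3.08 TPM in male WT, 4.36, 4.77 and 2.24 TPM in female cKO and 5.07, 5.49 and 4.54 TPM in male cKO libraries. The 3 male cKO libraries were all above the 3 male WT libraries, while the female groups overlapped. With the sexes of the quality summary the male groups overlap as well, since the library labelled female cKO 3, at 2.24 TPM, lies below the male WT libraries. The log2 difference of *Tap1* was 0.75 ± 0.30 in males (adjusted p = 0.88, unadjusted 0.0309, limma) and 0.11 ± 0.30 in females (adjusted p = 0.996), and the difference between the sexes did not pass (interaction 0.64 ± 0.43, adjusted p = 0.966). With the sexes of that summary the log2 differences were 0.36 in males and 0.49 in females, and without both conflicting libraries 0.74 and 0.44. *Tap1* overlaps *Psmb9* on the opposite strand over 212 bases and shares 7.59% of its 31-base words with other genes.

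*Tap2* had 7.72, 9.79 and 10.6 TPM in female WT, 9.77, 13.2 and 8.98 TPM in male WT, 9.03, 12.7 and 8.91 TPM in female cKO and 9.58, 8.54 and 6.19 TPM in male cKO libraries. No cKO library exceeded the highest WT library, and the lowest value was in male cKO 3. Its log2 difference was -0.14 ± 0.16 over both sexes (adjusted p = 0.937, limma), with a fold between 0.72 and 1.15 by the 95% interval. The ratio of *Tap1* to *Tap2* was 0.213 to 0.343 in male WT and 0.529 to 0.734 in male cKO libraries, which did not overlap, and 0.228 to 0.465 in female WT and 0.251 to 0.483 in female cKO libraries, which did. The separation in males rests on the sex labels, since the library labelled female cKO 3, at 0.251, would lie inside the male WT range with the sexes of the quality summary. With 3 libraries on each side the smallest two-sided p of an exact permutation test is 0.1, and the ratio was not tested.

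*Tapbp*, tapasin, holds empty class I molecules next to the transporter until a peptide is bound and lies at chr17:33915899-33929292 (plus strand). Its values were 10.1 to 16.2 TPM in WT (median 12.9) and 11.8 to 14.0 TPM in cKO libraries (median 12.5). The cKO range lay inside the WT range, and the fold change was 0.99 (95% interval 0.855 to 1.14, adjusted p = 0.995, limma). The gene overlaps *Zbtb22*, a zinc finger gene on the same strand with a mean of 22.9 TPM, over 3422 bases, so the split of reads between them is uncertain.

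*Psmb8* encodes a catalytic subunit that replaces *Psmb5* in the immunoproteasome, the interferon-inducible form of the proteasome, and lies between *Tap1* and *Tap2* at chr17:34197721-34201454. It had 4.27, 4.69 and 3.23 TPM in female WT, 5.27, 4.0 and 2.90 TPM in male WT, 5.5, 3.56 and 8.88 TPM in female cKO and 4.24, 4.70 and 8.09 TPM in male cKO libraries. Female cKO 3 and male cKO 3 stood far above the other 10 libraries, and the other 4 cKO libraries were within or just above the WT range. The fold change was 1.38 (95% interval 0.985 to 1.93, adjusted p = 0.774, limma). The same 2 libraries had the highest levels of *Gfap*, the intermediate filament of reactive astrocytes, with 437 and 1270 TPM against 208 to 285 TPM in the other 10. Without both, an alternative added after the values were seen, the log2 difference of *Psmb8* went from 0.46 to 0.16 and that of *H2-K1* from 0.33 to 0.41, and the part of astrocytes in either was not tested. *Psmb8* over its constitutive counterpart *Psmb5* was 0.0164 to 0.028 in WT and 0.0198 to 0.0446 in cKO libraries.

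*Nlrc5*, the transactivator of class I genes, lies at chr8:94434356-94527272 and was the lowest of the 9 genes. It had 0.354, 0.866 and 0.687 TPM in female WT, 0.556, 0.645 and 0.628 TPM in male WT, 0.337, 0.518 and 0.193 TPM in female cKO and 0.737, 0.648 and 1.04 TPM in male cKO libraries. The 3 male cKO values were above the 3 male WT values, and the 3 female cKO values were below the mean of the female WT values, 0.636 TPM. Neither order holds with the sexes of the quality summary, by which the library at 0.193 TPM is male and that at 0.737 TPM is female, and the male log2 difference goes from 0.34 to -0.17. Over both sexes the log2 difference was -0.19 ± 0.32 (adjusted p = 0.967, limma), with a fold between 0.545 and 1.42 by the 95% interval. That interval covers differences in both directions, and includes the fold changes of the classical heavy chains.

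**Figure D3:**
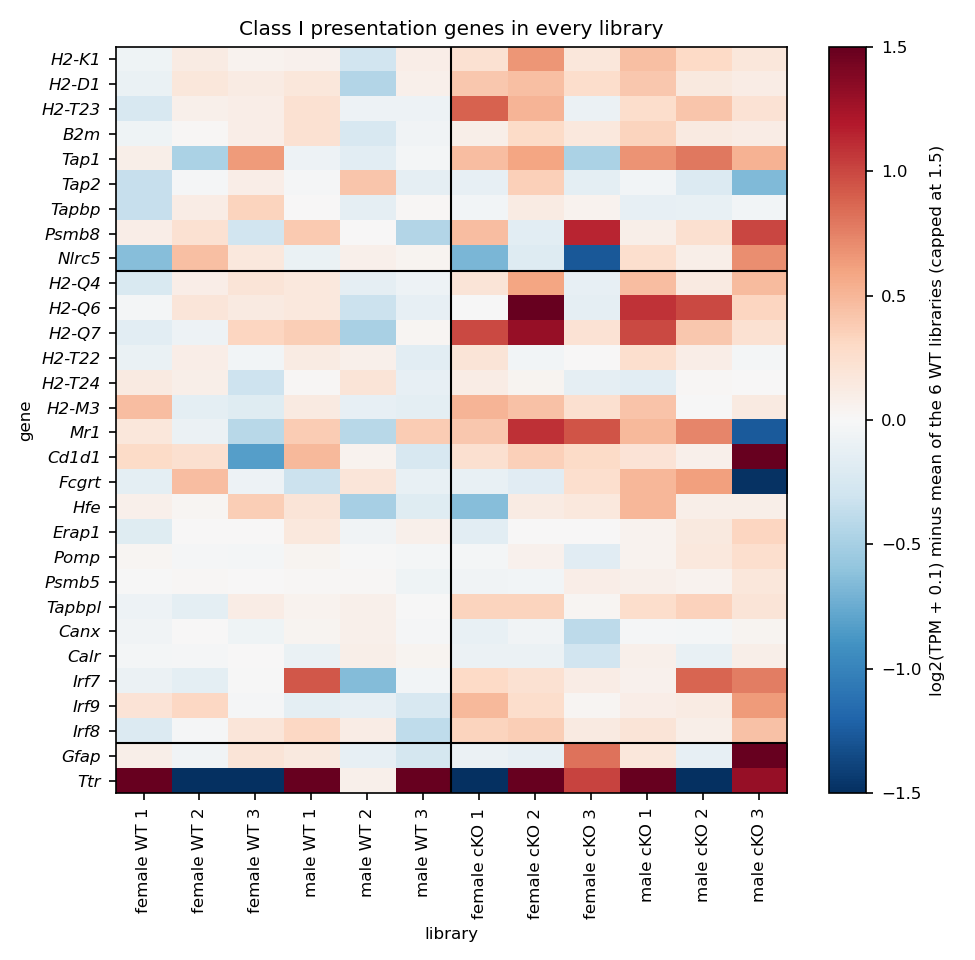
Level of each gene in each library as log2(TPM + 0.1) minus the mean of the 6 WT libraries (colour, capped at 1.5 either way); rows are the 9 genes, then other class I-like heavy chains with a mean of at least 1 TPM and named genes of the pathway lists, then *Gfap* and *Ttr*. *H2-K1* is above the WT mean in all 6 cKO libraries, *Psmb8* is highest in the 2 libraries with the highest *Gfap*, and *Ttr* varies widely within both genotypes.

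In single cKO libraries 5 to 7 of the 9 genes were above their WT means, and in single WT libraries 2 to 8 of the 9. The median of the 9 log2 values relative to the WT mean was 0.06 to 0.36 in cKO libraries and -0.12 to 0.10 in WT libraries. Female cKO 2 had the highest median and the highest value of both classical heavy chains. The 5 other genes whose log2 values followed the mean of the 9 most closely over the 12 libraries were *H2-Q4* (Pearson's r = 0.95), *Spsb2*, an adaptor of a ubiquitin ligase (0.92), *Ccin* (0.90), *Pgm3*, an enzyme of hexosamine synthesis (0.89), and *Cyp39a1*, an oxysterol hydroxylase (0.88). These values rank genes by likeness to a mean that includes the difference between genotypes, and *H2-Q4* shares 58.4% of its 31-base words with other genes.

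The other class I-like heavy chains held a few genes with higher cKO values beside many with differences near 0 or below it. Of 16 tested, 0 passed in limma, 3 were higher in cKO and 0 lower at an unadjusted p under 0.05, and the median log2 difference was 0.07. *H2-Q7* had 1.28 to 2.39 TPM in WT and 2.13 to 4.66 TPM in cKO libraries, a log2 difference of 0.69 ± 0.22 (adjusted p = 0.489, limma). *H2-Q6* had 2.04 to 2.93 TPM in WT and 2.33 to 7.47 TPM in cKO libraries, a log2 difference of 0.63 ± 0.26 (adjusted p = 0.674, limma). These genes of the Qa-2 family were highest in female cKO 2, as were *H2-K1* and *H2-D1*. *Cd1d1*, which presents lipids, had 12.1 TPM in male cKO 3 and 0.762 to 2.04 TPM in the other 11 libraries, and its log2 difference was 0.69 ± 0.45 with that library and 0.23 ± 0.22 without it. Between 48.1% and 58.4% of the 31-base words of *H2-Q4*, *H2-Q6* and *H2-Q7* occur in other genes, so reads can pass between members of this family.

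**Figure D4:**
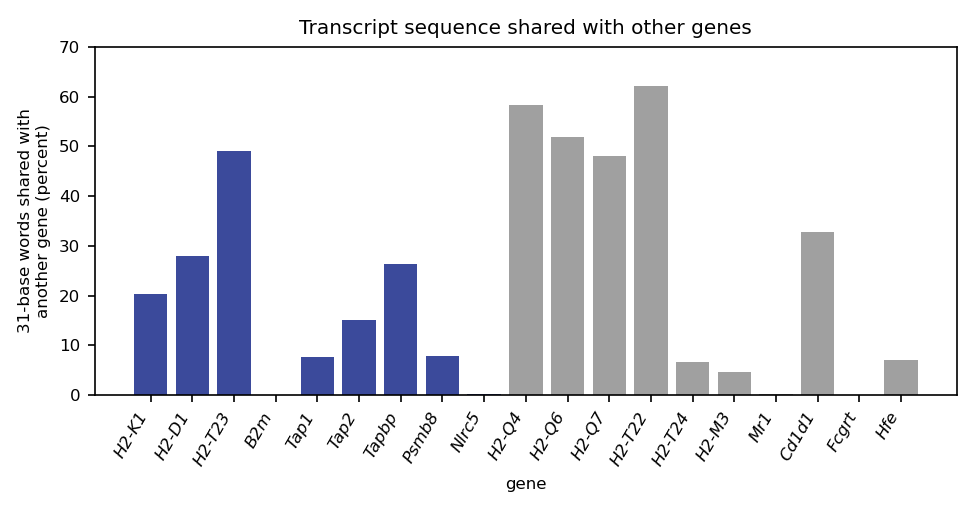
Percent of the 31-base words of each gene's annotated protein-coding transcripts that also occur, on either strand, in the transcripts of another gene (GENCODE M21); blue, the 9 genes; grey, other class I-like heavy chains with a mean of at least 1 TPM. *B2m* shares 0%, *H2-K1* 20.3%, *H2-T23* 49.0% and *H2-Q4* 58.4%.

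The differences in the proteasome and in the loading chaperones were nearer to 0. A list of 10 genes held the constitutive proteasome, its activators and assembly factor, peptide-trimming enzymes and a further immunoproteasome subunit, *Psmb10*. Of these, 0 passed and 0 had an unadjusted p under 0.05 in limma, with a median of 0.02. *Psmb10* had a mean of 20.8 TPM in WT and 21.1 TPM in cKO libraries (log2 difference 0.02 ± 0.08, adjusted p = 0.994, limma). The largest differences were those of *Erap1*, the aminopeptidase that trims peptides in the endoplasmic reticulum (0.06), the proteasome assembly factor *Pomp* (0.05) and *Psmb5* (0.05). Of 5 chaperones of class I loading 0 passed and 1 was higher at an unadjusted p under 0.05. This was *Tapbpl*, the relative of tapasin that edits peptides, at 4.93 to 5.91 TPM in WT and 5.61 to 7.0 TPM in cKO libraries (log2 difference 0.25 ± 0.08, adjusted p = 0.531, limma). The general chaperones calnexin (*Canx*, -0.09) and calreticulin (*Calr*, -0.07) had differences close to 0.

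Of 24 regulators of class I genes, 0 passed in limma, 3 were higher and 0 lower at an unadjusted p under 0.05, and 19 had log2 differences above 0 with a median of 0.07. The 3 were the interferon regulatory factors *Irf1* (0.24 ± 0.10, adjusted p = 0.673) and *Irf2* (0.18 ± 0.06, adjusted p = 0.585), named after their values were seen, and *Irf9*. By size the largest differences were those of *Irf7* (0.39 ± 0.24, adjusted p = 0.852), *Irf9* (0.27 ± 0.12, adjusted p = 0.746) and *Irf8* (0.26 ± 0.12, adjusted p = 0.762). By the sex labels, *Irf1* differed by 0.46 ± 0.10 in males (adjusted p = 0.397, limma) and by 0.01 ± 0.10 in females. *Rfx5*, also named after its values were seen, differed by 0.28 ± 0.09 in females and -0.30 ± 0.09 in males (adjusted p = 0.708 and 0.828, limma). The interaction passed for neither gene (adjusted p = 0.966, limma), and these values rest on the doubtful sex labels. Of 7 receptors of class I molecules, 6 were listed and 5 tested, and 0 passed or had an unadjusted p under 0.05 in limma, with a median of 0.04 and all means below 1 TPM.

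**Figure D5:**
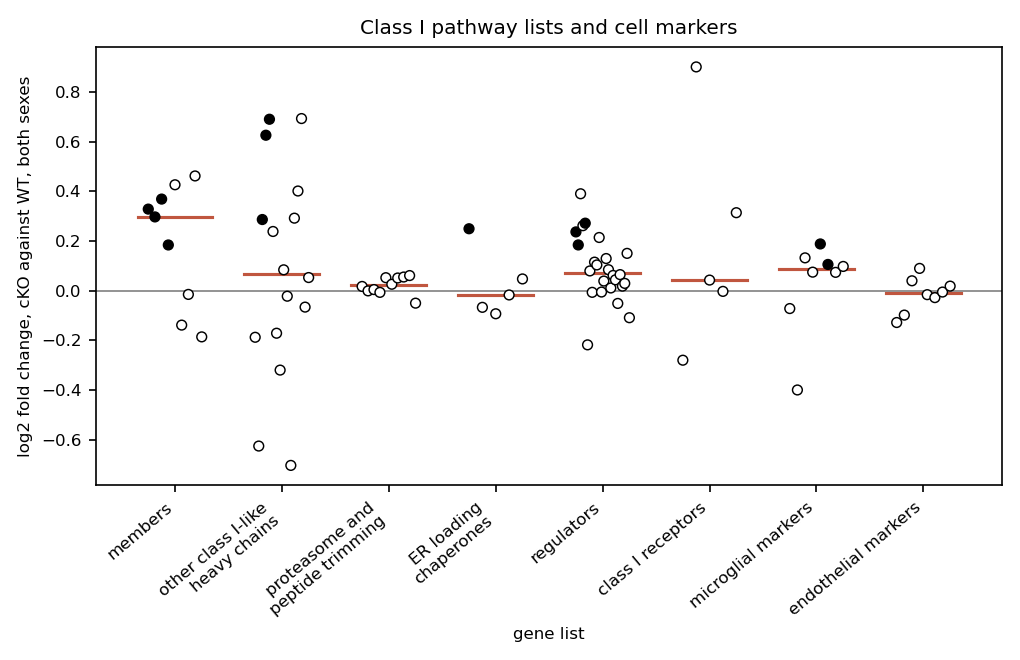
Log2 difference between cKO and WT of both sexes (vertical axis) for each gene tested in the lists named on the horizontal axis; filled points have an unadjusted p under 0.05 in limma, none passed after adjustment, and red lines are list medians. The median is 0.30 for the 9 genes, 0.07 for the other heavy chains, 0.02 for proteasome and trimming genes and 0.07 for regulators.

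Within a sex, 0 of the 9 genes passed in females or in males (limma), where 3 genes passed in each comparison (0.0165%). In females the genotypes also differ in the prefix of the library names. At an unadjusted p under 0.05, 2 of the 9 were higher in females (*H2-K1* and *H2-T23*), against 3.91% of all genes, and 2 in males (*H2-K1* and *Tap1*), against 3.68%. With the sexes of the quality summary these genes were *H2-K1*, *H2-D1* and *H2-T23* in females (4.81% of all genes) and *Psmb8* alone in males (4.43%). Without both conflicting libraries they were *H2-K1* and *H2-T23* in females (6.2%) and *Tap1* alone in males (4.81%). The median log2 difference of the 9 genes was 0.16 in females and 0.29 in males, against 0.22 and 0.16 with the sexes of the summary, and 0 of the 9 passed or had an unadjusted p under 0.05 for the interaction of sex and genotype, for which 0% of all genes passed and 4.23% had an unadjusted p under 0.05. In the comparison of WT males with WT females, 0 of the 9 genes passed or had an unadjusted p under 0.05 (limma), and over all genes 0% passed and 3.63% had such a p.

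Markers of other cell types were compared as sums of TPM over each list. The 8 microglial markers summed to 292 to 334 TPM in WT and 306 to 364 TPM in cKO libraries, and 2 of the 8 were higher in cKO at an unadjusted p under 0.05. The 8 endothelial markers summed to 169 to 193 TPM in WT and 152 to 184 TPM in cKO libraries, with 0 of 8 at an unadjusted p under 0.05. Both ranges overlapped between the genotypes, and the part of these cells in the differences of the class I genes was not tested. The 5 border macrophage markers summed to 2.27 to 5.94 TPM in WT and 2.02 to 8.76 TPM in cKO libraries. Markers of T and natural killer cells were near 0, with sums of 0.633 to 1.61 TPM in WT and 1.03 to 1.71 TPM in cKO libraries over 7 genes, 4 of them at 0 in at least 6 libraries and *Gzmb* at 0 in all 12. The 6 choroid plexus markers ran from 70.4 to 3040 TPM in WT and from 46.0 to 4440 TPM in cKO libraries, a wide spread within both genotypes. *Ttr*, one of them, was above the highest WT library (2940 TPM) only in male cKO 1 (4290 TPM) and female cKO 2 (3310 TPM). These libraries also had the 2 highest values of *H2-K1* and of *B2m*. *Ttr* was lowest in female cKO 1 (37.5 TPM), where *H2-K1* had 29.7 TPM and *B2m* 178 TPM. The part of choroid plexus in the class I values was not tested. The 3 neutrophil markers, of which *Ly6g* was at 0 in 11 libraries, summed to 0 to 1.58 TPM in WT and 0 to 5.55 TPM in cKO libraries. One of them, *S100a9*, had 0 to 0.428 TPM in WT and 0 to 3.89 TPM in cKO libraries and an unadjusted p under 0.05 (log2 difference 2.15 ± 0.82, adjusted p = 0.628, limma). It was at 0 in 4 WT libraries and 1 cKO library. Another, *S100a8*, had 0 to 1.16 TPM in WT and 0 to 2.29 TPM in cKO libraries (0.11 ± 0.86, adjusted p = 0.996, limma). The highest *S100a9* was in female cKO 1, which also had the highest *H2-T23*. The next, at 2.1 TPM, was in male cKO 2, where *H2-T23* had 12.2 TPM. The part of neutrophils in the class I values was not tested. The 8 neuronal markers summed to 4950 to 5380 TPM in WT and 4780 to 5550 TPM in cKO libraries.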

How the data were processed

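Per the sources, total RNA from 12 mouse hippocampus libraries was poly-A selected, prepared as stranded libraries and read as paired ends. The authors deposited 1 table of TPM, per gene and library. The submitters' processing notes name kallisto and mm10, the methods describe STAR and Salmon, and which of them wrote the table is not given in the sources used here. Columns were matched to samples by library name, and none was left over. TPM sums of 825750 to 845553 per library show that part of the transcripts were left out of the table. Identifiers were matched to GENCODE M21 (25245 of 26409 genes).

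Values were tested as log2(TPM + 0.1) for the 18197 genes whose mean reached 0.1 TPM, with limma 3.58.1 (R 4.3.3), a trended prior variance and two-sided tests. Log2 fold changes of genes near the pseudocount of 0.1 TPM understate the ratio of their TPM. Both sexes were compared as 6 against 6 libraries, and sexes, WT groups and the interaction in 1 fit of 4 groups. P-values were adjusted over all genes by the Benjamini-Hochberg method, and genes passed at an adjusted p under 0.05 and a fold over 1.2. TPM keep no counts, so the study's count test was not used, and the reads behind each value are unknown, although the study's methods state a read depth per library. Methods were tested on simulated data.

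The genes and lists were chosen with earlier results of these data known. Named are the 9 genes, *Dek*, Y-linked genes, of each pathway list the 3 largest differences among genes whose mean reached 1 TPM, and the 5 genes most alike in Pearson correlation to the mean of the 9. Other genes were named after their values were seen. Shared 31-base words were counted in GENCODE M21 transcripts, and motifs in the 250 bases before RefSeq starts (8 of 10 genes matched). Alternatives were pseudocounts of 0.5 and 1 TPM, no filter or 1 TPM, median ratio or quantile scaling, no trend, sex as covariate, a replicate block, the sexes of the quality summary, fits by sex and left-out libraries. Python 3.11.15, pandas 2.3.3 and numpy 2.4.6 made the tables.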

Additional observations from a re-analysis of the deposited data

Results flagged for a closer look

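*Tap1* in the library labelled female cKO 3 stood apart from the other cKO libraries, at 2.24 TPM against 4.36 to 5.49 TPM, a gap of 0.652 of the range of the 6 libraries. It was the only one of 18 groups of 6 (9 genes in 2 genotypes) in which a library stood this far out, and chance gives about 1 in 20 groups. The sex label of this library is in conflict with its Y-linked genes. Without it the log2 difference of *Tap1* over both sexes was 0.61, against 0.43 with it.

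For *Nlrc5* the log2 difference between cKO and WT was 1.04 higher in males than in females. All 3 female cKO libraries were below the mean of the female WT libraries and all 3 male cKO libraries above that of the male WT libraries. The interaction did not pass (SE 0.53, adjusted p = 0.966, unadjusted 0.0753, limma), and with the sexes of the quality summary it was 0.03.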

How the results depend on the processing

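None of the 9 genes passed under any alternative, in any comparison. Over both sexes *H2-K1*, *H2-D1*, *H2-T23*, *B2m*, *Tap1* and *Psmb8* kept a higher cKO value in 24 of 24 alternatives, and the adjusted p of *H2-K1* ranged from 0.296 to 0.836. Genes of the whole table passing in both sexes, 27, became 17 with no filter on low values, 10 without the female WT libraries, 12 without both libraries of conflicting sex, 15 without the 2 cKO libraries of highest *Gfap* (added after seeing the data), and 13 to 27 with 1 library left out (13 to 16 without female WT 1, female cKO 1, female cKO 2 or male cKO 1). In females, 3 became 7 with no trend, 6 without both libraries of conflicting sex, 9 with the sexes of the quality summary, 1 in a fit on the 6 libraries, 10 without the libraries of highest *Gfap*, and 1 to 8 with 1 library left out (8 without female WT 1, 5 without female cKO 3, 1 without female cKO 1 or 2). In males, 3 became 6 with no filter, no trend, both conflicting libraries left out or a fit on the 6 libraries, 5 with the sexes of the quality summary, and 2 to 7 with 1 library left out (6 without female WT 1, 7 without male WT 3). For the interaction, 0 became 2 with no filter or no trend, 3 without both conflicting libraries or with the sexes of the quality summary, and 0 to 1 with 1 library left out (1 without female cKO 2 or male cKO 1). The causes were not tested. With the replicate block, 3 genes passed in both sexes, 1 in females and 1 in males. The labels name no pairing of same-numbered libraries. The r of their deviations from group means was -0.0728 to 0.0607, against 0.0248 to 0.0761 for the best other pairing. Values this near 0 for every pairing cannot show whether libraries were paired.

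Signs turned for small differences. *Tapbp* became 0.016 in both sexes without the female WT libraries, and -0.037 in females and 0.0068 in males with the sexes of the quality summary, where *Nlrc5* in males became -0.17. With 1 library left out, *Tapbp* ranged from -0.084 to 0.052 in both sexes and -0.17 to 0.17 in females, *Nlrc5* from -0.36 to 0.030 in both sexes, *Tap1* from -0.17 (without female WT 2) to 0.44 in females and *Tap2* from -0.051 to 0.21 in females. Other scalings moved the median of all genes from 0.02 to -0.01 at most. TPM do not keep the reads of a gene, so counting error could not be given for low genes such as *Nlrc5*.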
